A study of Homo sapiens with 27 samples.

Results

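The 10 genes described here encode the main heat shock proteins of the cytosol and the mitochondrial matrix: HSPA1A, HSPA1B, HSPA8, HSPH1, DNAJB1, HSP90AA1, HSP90AB1, HSPB1, HSPD1 and HSPE1. They were chosen by symbol, as 10 of the 60534 gene IDs shared by all libraries, and all 10 passed the filter on low counts in RNA-seq (13293 protein-coding genes kept) and in ribosome profiling (11766 kept). The cells were IMR90, an established line of normal human fetal lung fibroblasts. They were studied as cycling cells, as cells made quiescent by contact inhibition, as cells made senescent by 15 Gy of ionizing radiation and harvested 10 days later, as cells made senescent by 3 treatments with 50 µM etoposide over 10 days, and as cycling cells given 25 nM thapsigargin for 3 h. Etoposide blocks topoisomerase II, and thapsigargin blocks the calcium pump of the endoplasmic reticulum (ER). RNA-seq measured mRNA, and Ribo-seq counted footprints, the pieces of mRNA left by RNase because a ribosome covered them. Each state had 3 libraries per assay, except for 2 cycling RNA-seq libraries and 2 thapsigargin libraries of each assay. All states share 1 cell line, the senescent states were each sampled at 1 time, and the labels describe the thapsigargin medium without the antibiotics named for the others.

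Heat shock proteins are chaperones that keep other proteins folded. HSP70 proteins bind unfolded stretches in a cycle driven by ATP, J-domain proteins such as DNAJB1 bring them clients, HSPH1 exchanges their nucleotide, HSP90 proteins finish the folding of kinases and steroid receptors, and small heat shock proteins such as HSPB1 hold unfolded proteins without using ATP. HSPD1 and HSPE1 form the folding chamber of mitochondria and its lid. When unfolded protein builds up in the cytosol, heat shock factor 1 (HSF1) binds repeats of GAA and its complement TTC before these genes, whereas unfolded protein in the ER acts through other sensors on another set of chaperone genes.

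The bases before the start of 4 of the genes, and those between HSPD1 and HSPE1, are shown because the pairs HSPA1A and HSPA1B, and HSPD1 and HSPE1, are described together below, and because HSF1 binds such DNA. They are RefSeq sequences (GRCh38.p14) read 5′ to 3′ on the strand of the gene, and capitals mark alternating units with 2 free bases between them, GAANNTTC or TTCNNGAA, alone or overlapping.
HSPA8, chr11:123062137-123062386, minus strand: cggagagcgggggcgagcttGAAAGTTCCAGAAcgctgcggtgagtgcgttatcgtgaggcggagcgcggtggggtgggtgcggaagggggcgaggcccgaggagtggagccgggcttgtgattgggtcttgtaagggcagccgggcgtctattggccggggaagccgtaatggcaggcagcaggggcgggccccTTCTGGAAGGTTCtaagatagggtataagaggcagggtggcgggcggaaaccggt
HSPA1A, chr6:31815293-31815542, plus strand: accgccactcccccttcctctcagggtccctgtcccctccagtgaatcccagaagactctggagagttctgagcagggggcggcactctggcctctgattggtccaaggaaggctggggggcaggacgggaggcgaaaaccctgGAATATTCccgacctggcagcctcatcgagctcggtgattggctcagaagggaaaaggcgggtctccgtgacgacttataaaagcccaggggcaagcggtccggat
HSPA1B, chr6:31827488-31827737, plus strand: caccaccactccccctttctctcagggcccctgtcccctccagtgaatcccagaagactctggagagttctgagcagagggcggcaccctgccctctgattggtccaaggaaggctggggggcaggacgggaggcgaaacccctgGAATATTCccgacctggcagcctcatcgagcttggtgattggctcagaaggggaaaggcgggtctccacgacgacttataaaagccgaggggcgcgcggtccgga
HSPB1, chr7:76302423-76302672, plus strand: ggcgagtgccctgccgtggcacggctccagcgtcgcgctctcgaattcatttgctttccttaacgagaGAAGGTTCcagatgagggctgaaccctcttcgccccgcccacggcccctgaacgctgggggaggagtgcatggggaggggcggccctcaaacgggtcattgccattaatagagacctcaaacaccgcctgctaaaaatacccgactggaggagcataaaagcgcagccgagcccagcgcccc
Between the starts of HSPD1 and HSPE1, chr2:197500275-197500378, plus strand: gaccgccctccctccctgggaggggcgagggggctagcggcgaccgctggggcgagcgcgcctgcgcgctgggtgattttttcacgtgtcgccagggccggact
All 10 genes had a window of 300 bases (250 before to 50 after the start), and 4 of them held GAANNTTC or TTCNNGAA, beside 11.4% of the 15843 protein-coding windows. The HSPA1A match lay from -106 to -99 and the HSPA1B match from -105 to -98, counted from the start. Overlapping matches that make 3 units in a row (TTCNNGAANNTTC or GAANNTTCNNGAA) were in the HSPA8 window alone among the 10, from -230 and from -55, and in 0.366% of all windows. Such a match is a description of letters, not a site of binding, and the table gives 1 start per gene, which lies inside the outermost annotated start by 326 bases for HSPA8 and by 31120 bases for DNAJB1. For HSP90AA1 the window lies at the outermost start of a long gene (chr14:102080742-102139749, minus strand). Other starts inside a gene were not scanned, so a window without a match says nothing of them. The HSPA1A and HSPA1B stretches were identical at 235 of 251 aligned positions.

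HSPA1A (ENSG00000204389) and HSPA1B (ENSG00000204388) lie 9796 bases apart on chromosome 6 and encode the near-identical stress-inducible HSP70. Reads that map to several places are in no gene's count, so both genes are counted only from reads that tell them apart, and their values are uncertain. HSPA8 (ENSG00000109971, chr11:123057489-123062462) encodes the HSP70 that cells make without stress. RefSeq lists 20 pseudogenes named after it, 22 named after HSPD1 (ENSG00000144381, chr2:197486584-197500274) and 28 named after HSPE1 (ENSG00000115541, chr2:197500379-197503449), which can take reads from the count in the same way. HSPE1 also lies inside the annotated readthrough gene HSPE1-MOB4, which had 0 counts in every library, and reads that overlap both are not counted, so the HSPE1 level is uncertain.

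In units of 1e6 reads, total gene counts were 20.6 to 57.1 in RNA-seq and 1.94 to 20.0 in Ribo-seq. The thapsigargin libraries stood apart: their Ribo-seq reads mapped to several places for 65.2% to 66.9%, beside 19.8% to 31.9% in the other Ribo-seq libraries, and their unmapped RNA-seq reads were 1.35% to 1.40%, beside 27.8% to 40.6%. Their Ribo-seq counts also follow another gene list than the other Ribo-seq counts. The part of these differences in the thapsigargin results was not tested. All 10 fibroblast markers were above 1 CPM (counts per 1e6 reads in genes) in at least 1 library of every state. Their levels moved all the same: under thapsigargin 7 of the 10 fell in RNA-seq (median log2 change -1.04) and 9 in Ribo-seq (-2.30), with 0 higher, and after irradiation 2 rose and 6 fell in Ribo-seq (-0.90). After etoposide 1 rose and 2 fell in each assay, and in quiescent cells 1 fell in each. The part of these markers in the results below was not tested. Summed epithelial, endothelial and leukocyte markers reached at most 3.21 CPM in RNA-seq, except for an epithelial sum of 15.4 and 19.1 CPM in the thapsigargin libraries from CLDN4, the 1 gene of the list above 1 CPM there, with KRT5, KRT14, SFTPC, SFTPB and NKX2-1 at 0. Smooth muscle markers summed to 282 to 800 CPM, lowest under thapsigargin (282 and 366). In bulk RNA, fewer cells of a type and less RNA per cell cannot be told apart.

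The mRNA of most of these genes varied less between states than that of the median gene. The highest and lowest state means of log2 CPM differed by a median of 0.52 over the 10 genes in RNA-seq, beside 0.78 over all genes tested, and 8 of the 10 lay below that median. In Ribo-seq the median was 0.79, beside 1.15 for all genes, with 7 of the 10 below it. The narrowest genes in RNA-seq were HSP90AA1 (0.28), HSP90AB1 (0.31) and HSPH1 (0.32), and the widest were HSPA1A (1.16) and HSPA1B (0.90). All genes were not matched to the 10 by count, and HSPA1A and HSPA1B also had the fewest RNA-seq counts of the 10. The part of count level in these ranges was not tested.

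**Figure D1:**
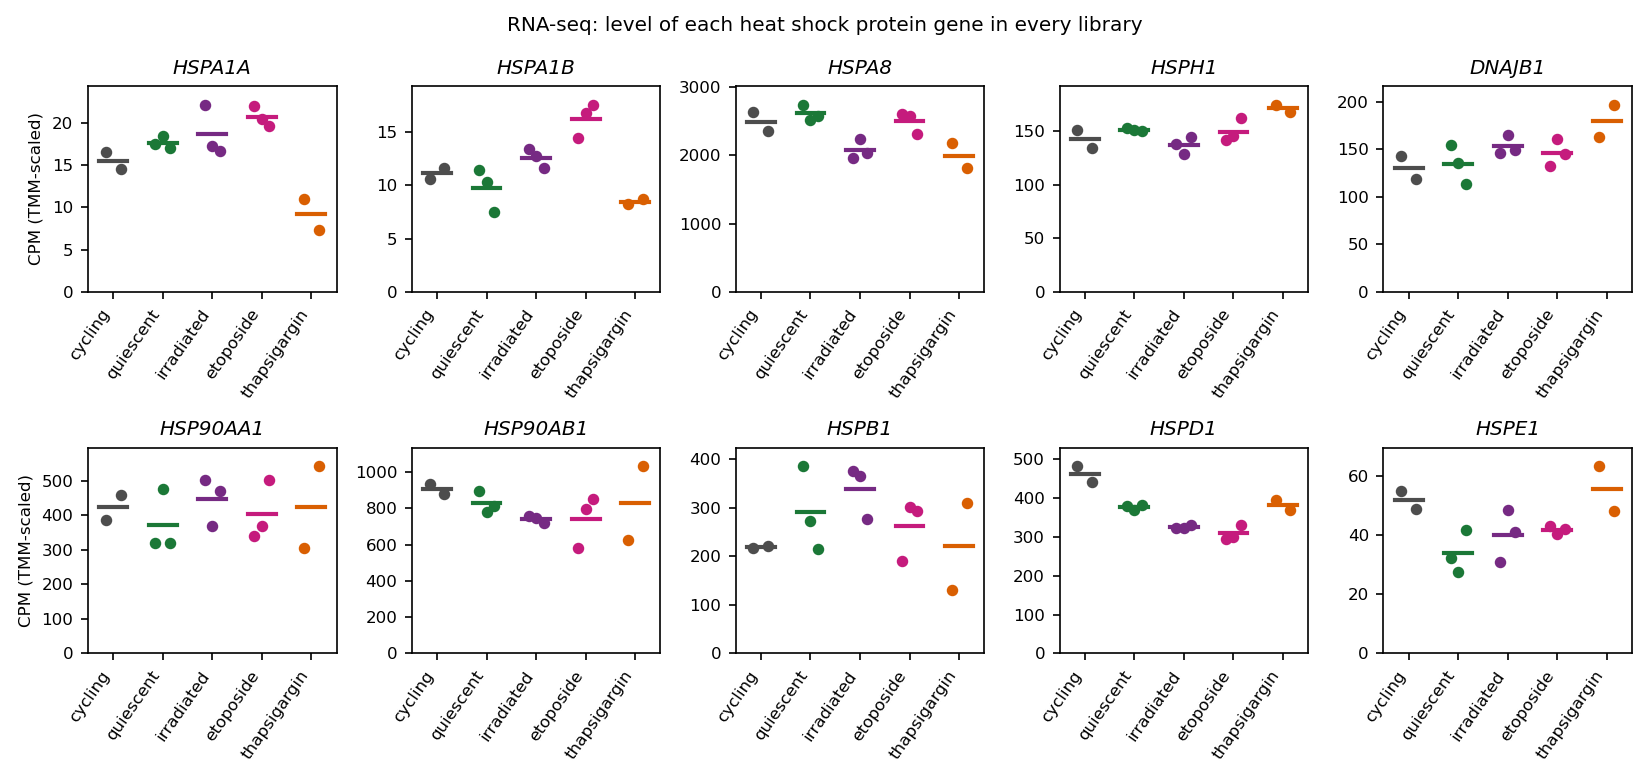
RNA-seq level of each gene in every library (points; vertical axis in TMM-scaled CPM from 0, scaled per panel) by state, with the mean of each state as a bar. HSPD1 is highest in the 2 cycling libraries (481 and 442 CPM), and the thapsigargin pair is far apart for HSP90AA1 (304 and 542 CPM) and HSPB1 (131 and 310.5 CPM).

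HSPA1B mRNA rose after etoposide, and HSPA1A mRNA fell under thapsigargin, both on calls that single libraries could undo. HSPA1A mRNA was at 16.5 and 14.5 CPM in cycling cells, 17.4, 18.4 and 17.0 in quiescent cells, 22.1, 17.3 and 16.6 after irradiation, 22.0, 20.4 and 19.6 after etoposide, and 10.9 and 7.36 under thapsigargin. HSPA1B mRNA was at 10.6 and 11.7, 11.5, 10.3 and 7.54, 13.5, 12.7 and 11.7, 14.4, 16.8 and 17.6, and 8.24 and 8.73 CPM in the same order. For both genes, every etoposide library lay above both cycling libraries and every thapsigargin library below them. HSPA1B rose after etoposide by 0.55 ± 0.18 (log2 fold change ± SE, here and below; edgeR adjusted p = 0.032), a call lost without either cycling library or without etoposide replicate 2 or 3, where adjusted p ranged from 0.0817 to 0.201. Across both senescent states HSPA1B was above quiescent cells by 0.55 ± 0.14 (edgeR adjusted p = 0.00926), with no overlap between the groups. HSPA1A after etoposide was at 0.41 ± 0.18 and did not pass (edgeR adjusted p = 0.0943). It passed with the replicate number as a block (0.46, adjusted p = 0.0477), with only these 2 states in the fit (0.0306) or without the thapsigargin libraries (0.0448). With the counts of HSPA1A and HSPA1B summed, the rise after etoposide was 0.47 (edgeR adjusted p = 0.0183) and that of the senescent states over quiescent cells 0.31 (edgeR adjusted p = 0.038), and both passed. Under thapsigargin HSPA1A mRNA fell, at -0.77 ± 0.20 (edgeR adjusted p = 0.013), a call lost without cycling replicate 1, without thapsigargin replicate 2, or when only these 2 states were fitted (adjusted p of 0.0971 to 0.115). HSPA1B was at -0.39 ± 0.20 there (edgeR adjusted p = 0.168). The summed counts of the pair fell under thapsigargin, at -0.60 (edgeR adjusted p = 0.0116).

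Footprints of the pair were above cycling in the senescent libraries and nearly missing under thapsigargin. HSPA1B footprints were at 14.5, 11.8 and 12.6 CPM in cycling cells, 14.1, 10.5 and 13.5 in quiescent cells, 17.7, 21.3 and 20.9 after irradiation, and 16.9, 20.1 and 14.7 after etoposide. Every library of either senescent state thus lay above every cycling and quiescent one. HSPA1B rose by 0.62 ± 0.19 after irradiation (edgeR adjusted p = 0.0222) and by 0.54 ± 0.16 over both senescent states against quiescent cells (edgeR adjusted p = 0.0269). The first call was lost without cycling replicate 2 or 3, without irradiated replicate 2 or 3, or with no filter on low counts (adjusted p of 0.0648 to 0.0856), and the second without quiescent replicate 2, irradiated replicate 2 or 3 or etoposide replicate 2, or with no filter (0.0556 to 0.131). After etoposide HSPA1B footprints were at 0.42 ± 0.19 (edgeR adjusted p = 0.11). With only these 2 states in the fit the change was 0.41 and passed (edgeR adjusted p = 0.0364). HSPA1A footprints were at 6.27, 6.71 and 7.62 CPM in cycling cells, 7.39, 8.57 and 9.58 in quiescent cells, 9.75, 9.50 and 12.8 after irradiation and 11.2, 11.6 and 10.4 after etoposide. The senescent libraries did not overlap the cycling ones, but the irradiated ones overlapped the quiescent ones. The changes from cycling cells, 0.63 ± 0.28 after irradiation and 0.69 ± 0.27 after etoposide, did not pass in the fit of all states (edgeR adjusted p of 0.0851 and 0.0634). Both passed with DESeq2 (adjusted p of 0.0113 and 0.00313), with only the 2 states compared in the edgeR fit (0.0135 and 0.0037) and without the thapsigargin libraries (0.0155 and 0.0061), at changes of 0.59 to 0.71. With the counts of HSPA1A and HSPA1B summed, footprints rose after irradiation (0.59, edgeR adjusted p = 0.0374) and were at 0.50 after etoposide (edgeR adjusted p = 0.0744). The summed footprints of both senescent states against quiescent cells were at 0.47 and did not pass (edgeR adjusted p = 0.0662).

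Under thapsigargin HSPA1B had 0 footprints in both libraries, and HSPA1A had 4 in replicate 1 and 0 in replicate 2. Together the pair had 655 footprints in the cycling libraries. With 3 counts per library as the floor, HSPA1B footprints were at least 8.06-fold lower than in cycling cells, for counting error only. HSPA1A passed as lower (edgeR adjusted p = 0.00239), and HSPA1B did too (edgeR adjusted p = 6.17e-06), although a fitted fold change against 0 has no bounded size. HSPA1L, the neighbouring HSP70 gene of the same family, went from 118 cycling footprints to 0. Its mRNA was at 1.61 and 2.18 CPM in cycling cells and 0.561 and 0.720 under thapsigargin, so low mRNA there was not particular to HSPA1A. Of 10527 genes tested with at least 100 cycling footprints, 135 had 0 in both thapsigargin libraries. Beside HSPA1B and HSPA1L, these included the ribosomal protein genes RPL29 and RPS26, as well as SDHA, CDC42, NOMO2, NOMO3 and HLA-G. Zeros there were thus not particular to the HSP70 genes. Whether the higher share of reads mapping to several places, or the other gene list, bears on these zeros was not tested.

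HSPA8 footprints rose in both senescent states and fell under thapsigargin, and none of its mRNA changes passed in the fit of all states. Its mRNA was at 2627 and 2355 CPM in cycling cells, 2736, 2519 and 2569.7 in quiescent cells, 1955, 2229 and 2025 after irradiation, 2607, 2566 and 2307 after etoposide, and 2179 and 1808 under thapsigargin. Its mRNA changes were 0.00 ± 0.12 after etoposide (edgeR adjusted p = 0.994) and -0.27 ± 0.12 after irradiation (edgeR adjusted p = 0.0962). The fall after irradiation passed with only these 2 states fitted and without the thapsigargin libraries (-0.31 to -0.29, edgeR adjusted p of 0.0326 to 0.0354). Irradiated mRNA was also below etoposide mRNA in those 2 kinds of fit and with DESeq2 (-0.32 to -0.30, adjusted p of 0.0188 to 0.03). Its footprints were at 1521, 1383 and 1543 CPM in cycling cells, 1426, 1598 and 1469.9 in quiescent cells, 1822, 1895 and 1928 after irradiation, 2086, 2168 and 2092 after etoposide, and 1011 and 949 under thapsigargin. The footprint levels fell into 4 bands without overlap: thapsigargin lowest, cycling with quiescent next, irradiated above them and etoposide highest. HSPA8 footprints rose by 0.51 ± 0.07 after etoposide (edgeR adjusted p = 0.000101), by 0.34 ± 0.07 after irradiation (edgeR adjusted p = 0.002) and by 0.41 ± 0.06 over both senescent states against quiescent cells (edgeR adjusted p = 0.000346). Irradiated and etoposide cells differed by -0.17 ± 0.07, which did not pass (edgeR adjusted p = 0.119). Under thapsigargin HSPA8 footprints fell, at -0.60 ± 0.08 (edgeR adjusted p = 9.26e-05).

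**Figure D2:**
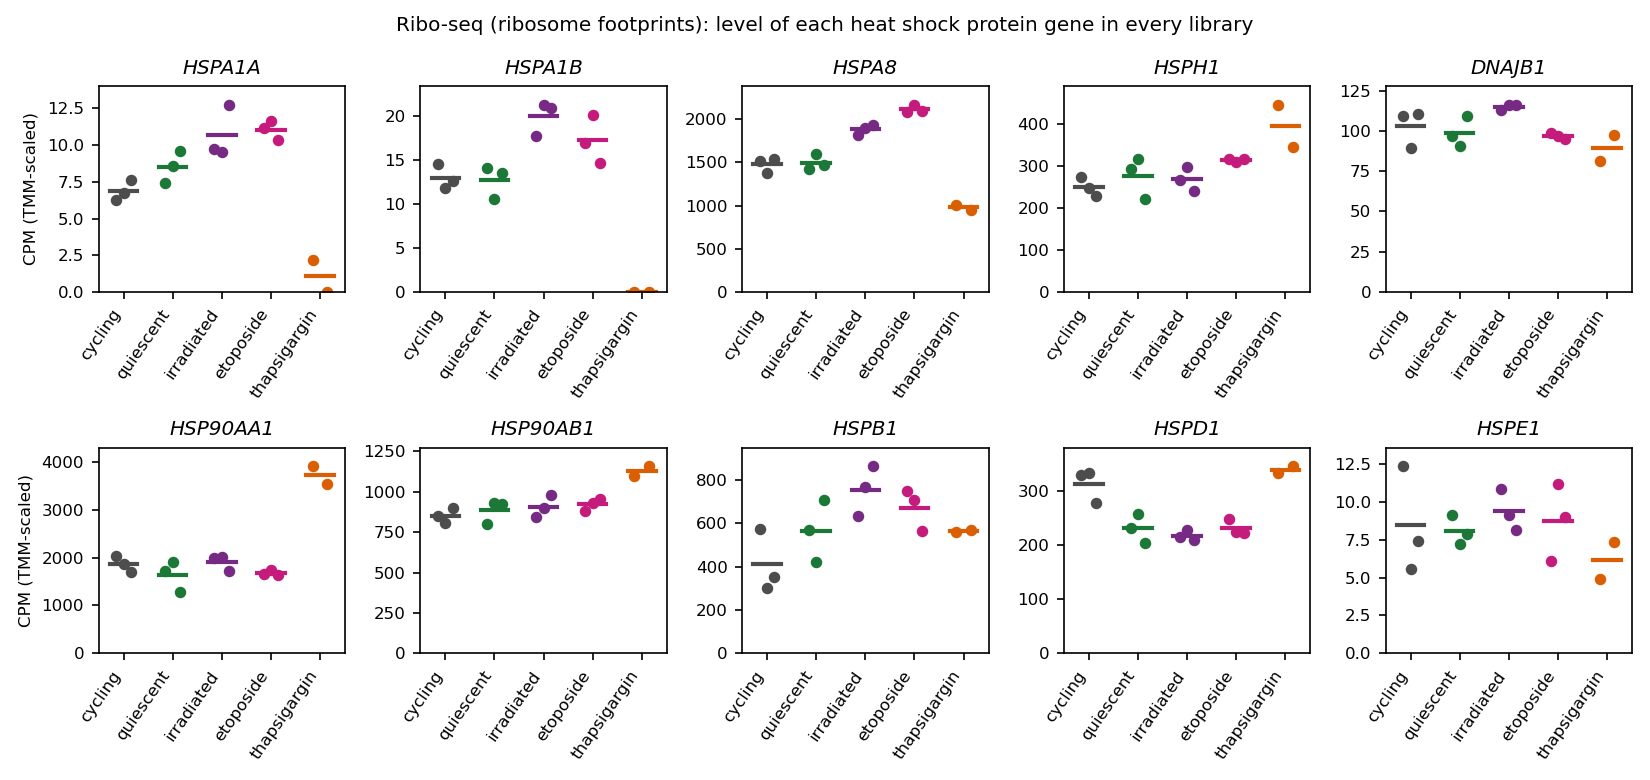
Ribo-seq level of each gene in every library (points; vertical axis in TMM-scaled CPM from 0, scaled per panel) by state, with the mean of each state as a bar. HSP90AA1 is highest in the 2 thapsigargin libraries (3903 and 3536 CPM) and HSPA8 lowest there (1011 and 949 CPM), and HSPA1B is at 0 in both.

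The ratio of HSPA8 footprints to mRNA, its translational efficiency (TE), changed by 0.70 ± 0.14 after irradiation and by 0.46 ± 0.14 after etoposide. Neither passed over the genes tested (edgeR adjusted p of 0.0505 and 0.616). With DESeq2 both passed (0.0185 and 0.0439), and the first also passed when only those 2 states were fitted (0.00111).

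The partners of HSP70 gave few changes. HSPH1, an HSP70 relative that exchanges nucleotide, had 274, 249 and 229 CPM of footprints in cycling cells and 447 and 346 under thapsigargin, with no overlap. That rise of 0.66 ± 0.15 passed (edgeR adjusted p = 0.0034), and without thapsigargin replicate 1 it was 0.42 (adjusted p = 0.0806). HSPH1 mRNA was at 152 and 135 CPM in cycling cells and 175 and 168 under thapsigargin, a change of 0.26 ± 0.11 that did not pass (edgeR adjusted p = 0.114). Over the other states HSPH1 lay between 129 and 162 CPM in RNA-seq and between 222 and 318 CPM in Ribo-seq, with no change from cycling cells that passed in the fit of all states. The nearest to it was in footprints after etoposide, where no library overlapped a cycling one and the change was 0.33 ± 0.14 (edgeR adjusted p = 0.0761). It passed with DESeq2 (adjusted p = 0.0442), with the replicate number as a block (0.041) or with only these 2 states in the fit (0.00768).

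DNAJB1, the J-domain protein that works with HSP70 in the cytosol and is strongly induced by heat, had 143 and 118 CPM of mRNA in cycling cells and 163 and 197 under thapsigargin. That difference of 0.46 ± 0.16 just missed the threshold (edgeR adjusted p = 0.0535) and passed with DESeq2, with another scaling, with all gene IDs or without thapsigargin replicate 1 (adjusted p of 0.0296 to 0.0478). Its footprints were at 109, 89.7 and 110.4 CPM in cycling cells and at 81.0 and 97.6 under thapsigargin, which overlap. DNAJB1 TE fell under thapsigargin, at -0.72 ± 0.22 (edgeR adjusted p = 0.0219). This did not hold without cycling RNA-seq replicate 2, cycling Ribo-seq replicate 1 or 3, thapsigargin RNA-seq replicate 2 or thapsigargin Ribo-seq replicate 1, and when only these 2 states were fitted (adjusted p of 0.0548 to 0.105). In quiescent and senescent cells no DNAJB1 value passed in either assay.

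The HSP90 genes rose in footprints under thapsigargin without a change in mRNA that passed. HSP90AA1, the stress-inducible HSP90, had footprints at 2029, 1864 and 1694 CPM in cycling cells, 1724, 1909 and 1288 in quiescent cells, 1979.7, 2006 and 1725 after irradiation, 1661, 1733 and 1641 after etoposide, and 3903 and 3536 under thapsigargin. Both thapsigargin libraries lay above the other 12. The rise against cycling cells was 1.00 ± 0.14 (edgeR adjusted p = 7.66e-05). HSP90AA1 mRNA was at 387 and 459.9 CPM in cycling cells and 304 and 542 under thapsigargin, so that its TE change of 0.95 ± 0.32 (edgeR adjusted p = 0.0374) rested on RNA-seq libraries that bracketed the cycling ones. The TE call was lost under 8 alternatives, among them leaving out either cycling RNA-seq library, cycling Ribo-seq replicate 3, or replicate 1 of either thapsigargin assay (adjusted p of 0.0513 to 0.16 over the 8). HSP90AB1, the constitutive HSP90, had footprints at 847, 809 and 897 CPM in cycling cells and 1094 and 1158 under thapsigargin, with no overlap and a rise of 0.40 ± 0.09 (edgeR adjusted p = 0.00389). Its mRNA there was at 627 and 1033 CPM, around the cycling values of 936 and 882. Its TE change of 0.49 ± 0.23 did not pass (edgeR adjusted p = 0.135), and without thapsigargin RNA-seq replicate 2 it was 0.92 and passed (0.00417).

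In senescent cells HSP90AB1 mRNA lay below both cycling libraries in all 6 libraries, at 758, 749 and 718 CPM after irradiation and 584, 796 and 853 after etoposide. The changes of -0.29 ± 0.19 in each state did not pass (edgeR adjusted p of 0.25 and 0.257). With only irradiated and cycling cells fitted, the irradiated change was -0.32 and passed (edgeR adjusted p = 0.00907). HSP90AB1 footprints, at 844 to 982 CPM over these 6 libraries, were 0.09 ± 0.09 and 0.11 ± 0.09 from cycling cells and did not pass either (edgeR adjusted p of 0.407 and 0.33).

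HSPB1, the small heat shock protein also called HSP27, had footprints at 576, 303 and 354 CPM in cycling cells, 568, 423 and 708 in quiescent cells, 632, 768 and 864 after irradiation, 749, 706 and 564 after etoposide, and 559 and 571 under thapsigargin. The irradiated libraries all lay above the cycling ones, and 1 etoposide library lay below cycling replicate 1. HSPB1 footprints rose by 0.88 ± 0.23 after irradiation (edgeR adjusted p = 0.00709) and by 0.71 ± 0.23 after etoposide (edgeR adjusted p = 0.0258). The etoposide call was lost without cycling replicate 2 or 3, without etoposide replicate 1 or 2, with low counts left in, and with only these 2 states fitted (adjusted p of 0.0557 to 0.11). Cycling replicate 1 was the highest of its group. Without it, HSPB1 also passed in quiescent cells, at 0.76 (adjusted p = 0.0214), and under thapsigargin, at 0.75 (adjusted p = 0.0146), beside 0.46 in both cases with it (edgeR adjusted p of 0.166 and 0.154). HSPB1 mRNA was at 217 and 221 CPM in cycling cells, 376, 365 and 277 after irradiation, and 191, 301 and 294 after etoposide. No HSPB1 mRNA change passed in the fit of all states, the largest being 0.63 ± 0.32 after irradiation (edgeR adjusted p = 0.148). With only these 2 states fitted, that rise was 0.61 and passed (edgeR adjusted p = 0.000785). The irradiated libraries all lay above both cycling ones in mRNA too.

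HSPD1, the mitochondrial chaperonin HSP60, was lower in senescent cells in both assays. Its mRNA was at 481 and 442 CPM in cycling cells, 380.0, 369 and 380.4 in quiescent cells, 323, 323 and 329 after irradiation, 295, 301 and 330.5 after etoposide, and 394 and 368 under thapsigargin. Cycling cells were highest, quiescent and thapsigargin libraries overlapped in the middle, and all senescent libraries lay below them. HSPD1 mRNA fell after etoposide, at -0.58 ± 0.10 (edgeR adjusted p = 0.000433), and after irradiation, at -0.51 ± 0.10 (edgeR adjusted p = 0.00122). The senescent states were below quiescent cells by -0.25 ± 0.08 (edgeR adjusted p = 0.0204), which was lost without quiescent replicate 1 or with no filter on low counts (adjusted p of 0.0541 and 0.0618). The quiescent change of -0.29 ± 0.10 did not pass (edgeR adjusted p = 0.0568). It passed with DESeq2 and in edgeR without the thapsigargin libraries (-0.31 to -0.30, adjusted p of 0.00719 to 0.0404).

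HSPD1 footprints were at 329.8, 333 and 278 CPM in cycling cells, 232, 258 and 203 in quiescent cells, 215, 229 and 209 after irradiation, 248, 225 and 223 after etoposide, and 333 and 346 under thapsigargin. The 9 quiescent and senescent libraries all lay below the cycling ones and overlapped each other. Footprints fell in quiescent cells, at -0.44 ± 0.10 (edgeR adjusted p = 0.008; 0.0554 when only these 2 states were fitted), after irradiation, at -0.53 ± 0.10 (edgeR adjusted p = 0.00125), and after etoposide, at -0.43 ± 0.10 (edgeR adjusted p = 0.00508). TE changes of HSPD1 in these states were between -0.05 and 0.09, each with an SE of 0.15.

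HSPE1, the lid of the HSPD1 chamber, starts 105 bases from HSPD1 on the other strand. Its mRNA was at 54.9 and 49.0 CPM in cycling cells, 32.1, 27.5 and 41.9 in quiescent cells, 30.8, 48.6 and 41.0 after irradiation, 43.0, 40.4 and 42.1 after etoposide, and 63.3 and 48.0 under thapsigargin. All 9 quiescent and senescent libraries lay below both cycling libraries, as for HSPD1. The quiescent change of -0.62 ± 0.20 just missed the threshold (edgeR adjusted p = 0.0524) and passed with DESeq2, with no filter, without quiescent replicate 3 and without the thapsigargin libraries (adjusted p up to 0.0468). The irradiated and etoposide changes of -0.37 ± 0.20 and -0.31 ± 0.20 did not pass (edgeR adjusted p of 0.168 and 0.247). With only etoposide and cycling cells fitted, the etoposide change was -0.32 and passed (edgeR adjusted p = 0.0333). HSPE1 footprints were few, at 4.93 to 12.3 CPM over the 14 libraries, and did not separate the states.

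**Figure D3:**
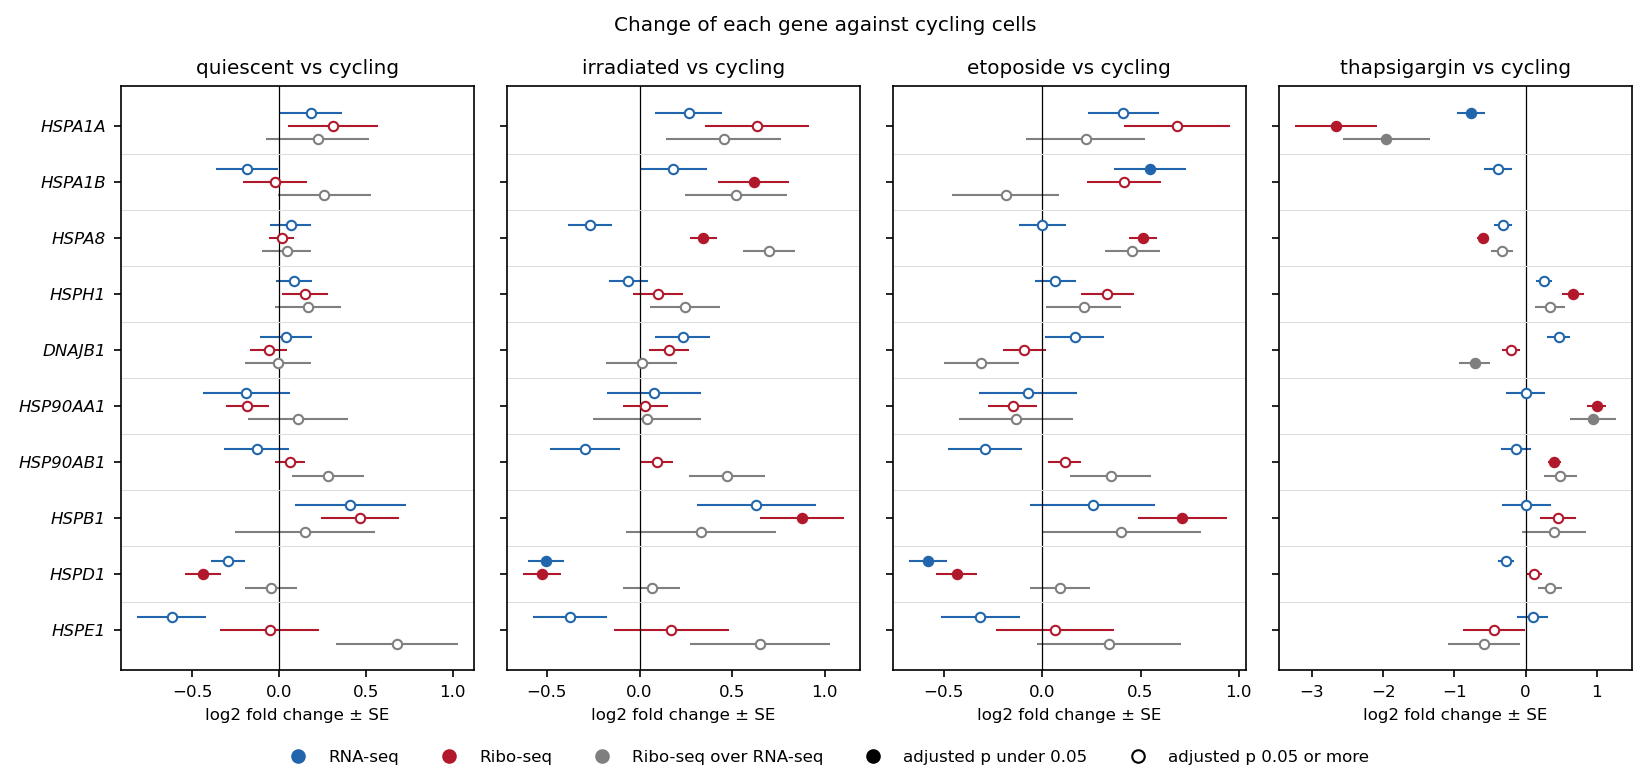
Change of each gene against cycling cells (log2 fold change, bars ± SE; the axis of the thapsigargin panel is wider) in RNA-seq, Ribo-seq and their ratio, with filled points for adjusted p under 0.05. HSPA1B in thapsigargin Ribo-seq and its ratio are left out because both libraries had 0 counts; HSPD1 is lower in both senescent states and HSP90AA1 is higher in thapsigargin Ribo-seq (1.00).

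Counted over the 10 genes, which are few for such a share, the share that passed in the edgeR fit of all states lay below that of all genes in all 6 comparisons of mRNA. With DESeq2 this did not hold under thapsigargin, and for the other alternatives the order is not given here. In RNA-seq 0 of 10 passed in quiescent against cycling cells, beside 15.6% of all genes tested, with 2 at an unadjusted p under 0.05 and 2 called by DESeq2. After irradiation 1 of 10 passed (HSPD1, lower), beside 34.9%. After etoposide 2 passed (HSPA1B higher, HSPD1 lower), beside 34.6%, and under thapsigargin 1 passed (HSPA1A, lower), beside 24.5%. For the senescent states against quiescent cells 2 passed (HSPA1B and HSPD1), beside 34.2%. Between irradiated and etoposide cells 0 passed, beside 22.6%, with 2 at an unadjusted p under 0.05 and 1 called by DESeq2. The median change of the 10 genes in these comparisons lay between -0.07 and 0.10.

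In quiescent Ribo-seq 1 of 10 passed (HSPD1), beside 22.4% of all genes. After irradiation 4 passed (HSPA1B, HSPA8 and HSPB1 higher, HSPD1 lower), beside 40.5%. After etoposide 3 passed (HSPA8 and HSPB1 higher, HSPD1 lower), beside 33.9%. Under thapsigargin 6 passed (HSPH1, HSP90AA1 and HSP90AB1 higher, HSPA1A, HSPA1B and HSPA8 lower), beside 44.6%. For the senescent states against quiescent cells 2 passed (HSPA1B and HSPA8, higher), beside 26.1%, and between irradiated and etoposide cells 0 passed, beside 22.5%, with 2 at an unadjusted p under 0.05 and 1 called by DESeq2.

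In TE, calls came under thapsigargin. There 4 of 10 passed (HSP90AA1 higher, and DNAJB1, HSPA1A and HSPA1B lower), beside 20.7% of all genes, whose median change was -0.15. The HSPA1A and HSPA1B values rest on 4 and 0 thapsigargin footprints, with the limits given above, and the HSPA1B change has no bounded size. HSPA1A TE, at an edgeR adjusted p of 0.0265, was lost under 7 alternatives, among them DESeq2, the replicate number as a block and leaving out thapsigargin Ribo-seq replicate 2 (adjusted p of 0.0517 to 0.29). In the other TE comparisons 0 of 10 passed with edgeR, beside 0.00854% of genes in quiescent cells, 0.0512% after irradiation, 0.0683% after etoposide and 0% between the senescent states. At an unadjusted p under 0.05 the counts were 0, 2, 1 and 1, and DESeq2 called 0, 1, 1 and 0. Comparisons with cycling cells share the cycling libraries.

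The genes whose RNA-seq levels most resembled the 5 most variable members were found by Pearson's r of log2 CPM over the 13 RNA-seq libraries, which differ in depth and state, as a description. Among the genes named for HSPD1 was ANP32E (0.96), a histone chaperone. HSPE1 was closest to LDHB (0.90) and TMEM243 (0.90), HSPB1 to RANBP3 (0.94) and LCMT1 (0.94), HSPA1A to ZNF813 (0.96) and SIRT4 (0.95), and HSPA1B to NINJ1 (0.95) and SCN2B (0.94).

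Paralogs of these genes work in other compartments. HSPA5, the HSP70 of the ER, had mRNA that rose by 1.50 ± 0.48 under thapsigargin (edgeR adjusted p = 0.0358), where its libraries were far apart (216 and 601 CPM). HSPA5 footprints were at 1928 and 2087 CPM under thapsigargin, beside 1024, 1077 and 1129 in cycling cells. They fell after irradiation, at -1.66 ± 0.27 (edgeR adjusted p = 0.000315). HSP90B1, the HSP90 of the ER, fell after irradiation in mRNA (-1.13 ± 0.31, edgeR adjusted p = 0.0124) and footprints (-1.56 ± 0.30, edgeR adjusted p = 0.001), where HSP90AA1 was at 0.08 ± 0.25 and 0.03 ± 0.12. HSPA9, the HSP70 of mitochondria, rose under thapsigargin in mRNA (0.53 ± 0.13, edgeR adjusted p = 0.0108) and footprints (0.91 ± 0.11, edgeR adjusted p = 3.87e-05), where HSPA8 was at -0.32 ± 0.13 and -0.60 ± 0.08. TRAP1, the HSP90 of mitochondria, fell in footprints after irradiation (-0.39 ± 0.13, edgeR adjusted p = 0.027) and under thapsigargin (-0.42 ± 0.15, edgeR adjusted p = 0.0405). The difference between each paralog and its cytosolic relative was not tested.

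Of the factors that act on these genes, HSF1 did not pass in any comparison with cycling cells in mRNA or footprints; its mRNA was at 0.51 ± 0.18 under thapsigargin (edgeR adjusted p = 0.0536). HSF2, a related factor, had footprints at 33.3, 34.3 and 31.6 CPM in cycling cells and 61.9 and 63.5 under thapsigargin. That rise of 0.92 ± 0.14 passed (edgeR adjusted p = 0.00016), as did its TE (0.84 ± 0.21, edgeR adjusted p = 0.0056), with mRNA at 0.02 ± 0.15 (edgeR adjusted p = 0.93).

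**Figure D4:**
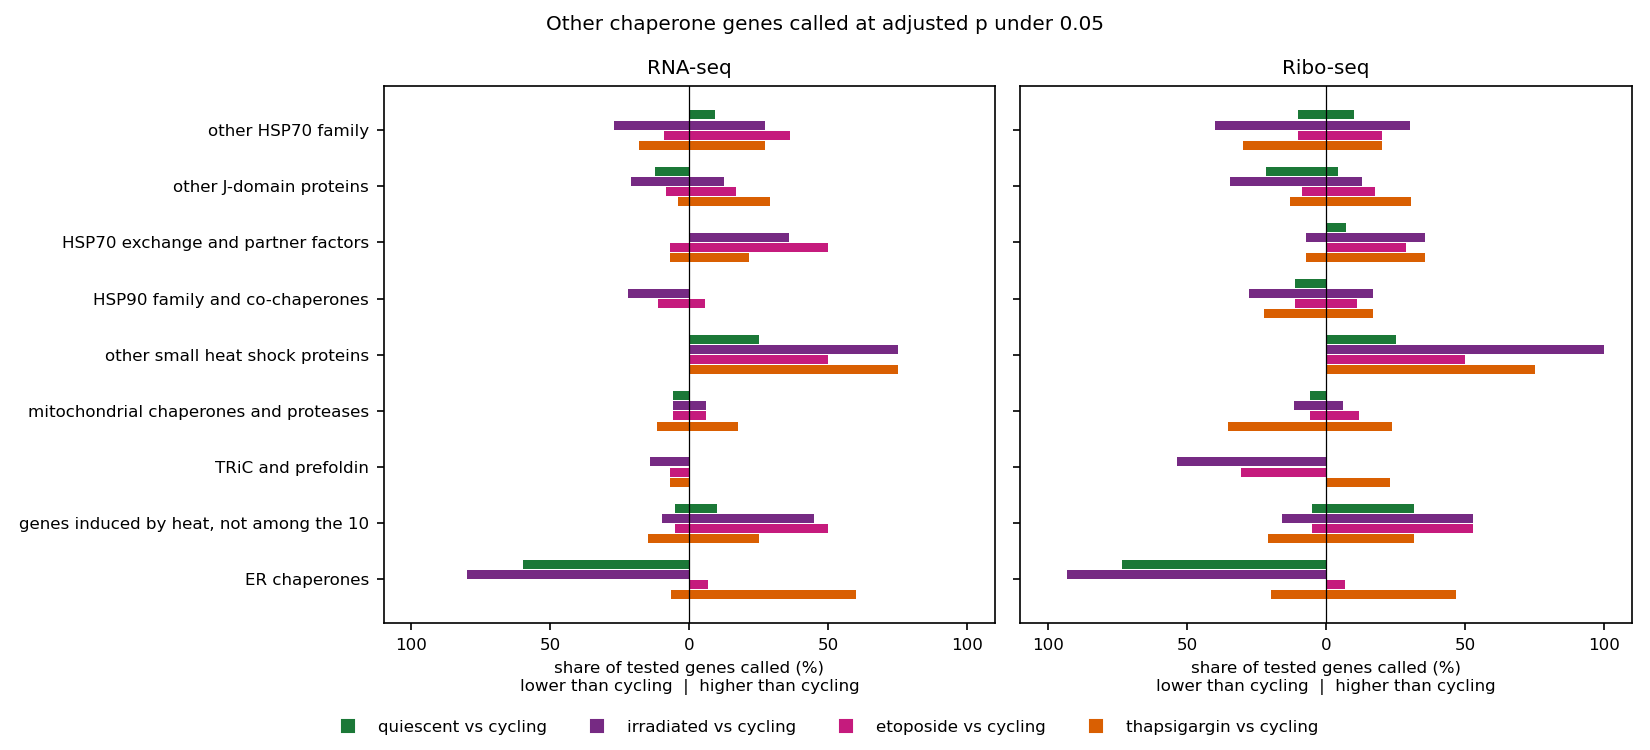
Share of the tested genes of 9 other chaperone lists that passed as higher (right) or lower (left) than cycling cells, by comparison (colour) and assay (panel). The small heat shock protein list holds only 4 tested genes; ER chaperones are mostly lower in irradiated and quiescent cells and mostly higher in RNA-seq under thapsigargin.

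Among other genes that heat induces, more passed as higher than as lower in both senescent states. Of 20 such genes tested in RNA-seq, 10 rose and 1 fell after etoposide (median 0.52), 9 rose and 2 fell after irradiation (0.32), 2 rose and 1 fell in quiescent cells (0.17), and 5 rose and 3 fell under thapsigargin (0.04), beside medians of all genes from -0.03 to 0.03. All genes passed in either direction for 34.6%, 34.9%, 15.6% and 24.5% in these comparisons. In Ribo-seq, of 19, 10 rose and 1 fell after etoposide (beside 33.9% of all genes called), 10 rose and 3 fell after irradiation (40.5%), 6 rose and 1 fell in quiescent cells (22.4%), and 6 rose and 4 fell under thapsigargin (44.6%). Those with the largest rises in these states included ATF3, a stress-induced transcription factor (mRNA 1.95 ± 0.15 after etoposide), DNAJB4, a J-domain protein (footprints 1.73 ± 0.15 after irradiation), and CRYAB, the small heat shock protein αB-crystallin (mRNA 1.88 ± 0.17 after irradiation). SERPINH1, the collagen chaperone of the ER, fell in mRNA after irradiation, at -1.64 ± 0.20. Several of these genes also answer to stress other than heat, and the list shares HSPA1L, HSPA4, HSPA4L, HSPB8, CRYAB, DNAJA1 and others with the family lists.

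The counts of the lists that follow stand beside the same shares of all genes called in either direction: in RNA-seq 34.9% after irradiation, 34.6% after etoposide and 24.5% under thapsigargin, and in Ribo-seq 40.5%, 33.9% and 44.6%. Of 7 other small heat shock proteins, 4 could be tested. In RNA-seq 3 rose after irradiation, 2 after etoposide and 3 under thapsigargin, and none fell; HSPB8 rose by 1.20 ± 0.14, 1.04 ± 0.13 and 1.51 ± 0.15 in these. In Ribo-seq all 4 rose after irradiation, with CRYAB at 2.36 ± 0.20. Of 14 exchange factors and partners of HSP70, 5 rose after irradiation and 7 after etoposide in RNA-seq, while 0 and 1 fell, beside 34.9% and 34.6% of all genes called; HSPA4L, an HSPH1 relative, rose by 1.12 ± 0.14 and 1.40 ± 0.14. Of 18 HSP90 co-chaperones and relatives, 4 fell after irradiation and 0 rose in RNA-seq, 1 rose and 2 fell after etoposide, and 0 passed under thapsigargin, each time a lower share than that of all genes.

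Of 13 genes of TRiC, the chaperonin of the cytosol, and of its partner prefoldin tested in Ribo-seq, 7 fell after irradiation, beside 40.5% of all genes called in either direction, and 4 after etoposide, beside 33.9%, while none rose; CCT2 was at -0.64 ± 0.10 and -0.37 ± 0.10. Under thapsigargin 3 rose and 0 fell, with CCT5 at 0.76 ± 0.12. Of 17 mitochondrial chaperones and proteases, 1 rose and 1 fell in RNA-seq in each senescent state.

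Of 15 chaperones of the ER, 12 fell in mRNA after irradiation (median -1.05), beside 34.9% of all genes called in either direction, and 9 fell in quiescent cells (-0.75), beside 15.6%. In mRNA 1 rose after etoposide (0.03), beside 34.6%, and 9 rose and 1 fell under thapsigargin (0.92), beside 24.5%. In footprints 14 fell after irradiation (beside 40.5%), 11 fell in quiescent cells (22.4%), 1 rose and 0 fell after etoposide (33.9%), and 7 rose and 3 fell under thapsigargin (44.6%). In the same order, 1, 0, 2 and 1 of the 10 cytosolic and mitochondrial genes passed in mRNA and 4, 1, 3 and 6 in footprints.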

How the data were processed

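RNA-seq and Ribo-seq of IMR90 cells were analysed from the authors' deposited read counts per gene, in the layout STAR writes. The submitters' processing notes name STAR 2.7.10b, the hg38 build and DESeq2 1.36.0, and the annotation is not given in the sources used here. Per the labels' protocols, both assays were made from polysome lysate, footprints were selected by size, and the RNase time is given as 40 min in one place and 20 min in another. Groups follow the titles, since 1 characteristic calls all thapsigargin libraries protected fragments. In quiescent against cycling Ribo-seq, the deviations of same-numbered libraries correlated at 0.17, 0.28 and 0.29 in the 3 pairs. No label pairs these libraries, such values do not establish a pairing, and the main fit had no replicate block. Nothing says that replicates came from separate cultures, so p-values measure only the spread between these samples. Replicates differed beyond counting noise (chi-square per degree of freedom 1.82 or more), so none was counted as a duplicate.

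For RNA-seq the counts of the reverse strand were taken, and for Ribo-seq those of the forward strand, as the kits require. A list of 62703 gene IDs underlies RNA-seq and thapsigargin Ribo-seq, and a list of 60664 the remaining Ribo-seq; the 60534 IDs in both were kept. Lines that name no gene (unmapped, 1.35% to 40.6% of reads; mapping to several places, 9.43% to 66.9%; outside genes, 1.45% to 12.8% of uniquely mapped reads) were left out. Protein-coding genes (RefSeq table, GRCh38.p14, joined by symbol) that passed filterByExpr went into edgeR 4.0.16 under R 4.3.3 (two-sided robust quasi-likelihood F test, TMM, all 5 states in the fit). Benjamini-Hochberg adjustment ran over all genes tested, and "passed", "rose" and "fell" mean an adjusted p under 0.05. TE was the interaction of assay and state over 27 libraries. SE is the log2 fold change divided by the square root of F. Likeness and ranges used log2 of CPM plus 0.5. Scaling sets the average change to about 0. The test was run on simulated counts drawn with the same spread for all genes and libraries. That run cannot show how the test behaves where the spread differs between states.

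The 10 genes, the lists and the rule for named genes (all members, 4 paralogs, HSF1 and HSF2, and the at most 2 largest rises and falls called in each list and comparison) were chosen with earlier results of these data known. A gene named for 1 comparison may be given in others too. Of the genes that the likeness rule names, 1 is not reported here. Levels were not compared between genes, since no coding or transcript lengths were used here. Alternatives were DESeq2 1.42.0, RLE scaling, no filter, unstranded counts, all gene IDs, only the groups compared, a replicate block, leaving out each library, and, chosen after seeing the data, leaving out all thapsigargin libraries and summing HSPA1A with HSPA1B.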

Additional observations from a re-analysis of the deposited data

How the results depend on the processing

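The changes of HSPA8 footprints (0.47 to 0.54 after etoposide, 0.26 to 0.37 after irradiation, -0.70 to -0.56 under thapsigargin) and of HSPD1 mRNA (-0.64 to -0.52 after etoposide, -0.57 to -0.44 after irradiation) and HSPD1 footprints (-0.51 to -0.39 and -0.61 to -0.48) passed under every alternative run. Over all single values of the 10 genes, 2360 kept their direction and side of the threshold, 48 gained a call, 48 lost one, 151 changed sign without passing either way, and none changed sign while passing.

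How many of the 10 genes passed depended on the setting, and so did how many of all genes passed. The cause was not tested. Counts given here without the number of all genes under the same setting are not to be read against the shares of the main fit. With DESeq2 the count in RNA-seq was 2 in quiescent cells, 3 under thapsigargin and 1 between the senescent states. All genes called by DESeq2 in RNA-seq were 2617 of 13035 in quiescent cells, 3780 of 13293 under thapsigargin and 3363 of 13293 between the senescent states. In Ribo-seq the DESeq2 count of the 10 was 5 after etoposide and 1 between the senescent states, and in TE 1 after irradiation and 1 after etoposide. With only the groups compared in the fit it was 4 after irradiation, 4 after etoposide, 0 under thapsigargin and 2 between the senescent states in RNA-seq, 0 in quiescent cells, 5 after etoposide and 2 between the senescent states in Ribo-seq, and 1 after irradiation and 1 under thapsigargin in TE. With no filter it was 1 in quiescent RNA-seq and 1 for senescent against quiescent cells in each assay. All genes called with no filter in RNA-seq were 1905 of 17534 in quiescent cells and 4354 of 17534 for senescent against quiescent cells. RLE scaling gave 2 and all gene IDs gave 2 in thapsigargin RNA-seq, where RLE scaling called 3234 of 13293 genes. Without all thapsigargin libraries it was 2 in quiescent cells, 2 after irradiation and 1 between the senescent states in RNA-seq. Leaving out 1 library at a time gave 0 to 1 in quiescent, 1 to 2 in etoposide and 0 to 3 in thapsigargin RNA-seq, 1 to 3 for senescent against quiescent RNA-seq, 1 to 2 in quiescent Ribo-seq, 1 to 2 for senescent against quiescent Ribo-seq, and 1 to 4 in thapsigargin TE; where it left 1 library in a group, that library was assumed to vary like the others.

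Over all genes, fitting only the groups compared called 852 in place of 2068 genes in quiescent RNA-seq, 1512 in place of 3259 in thapsigargin RNA-seq, 6020 in place of 3986 in etoposide Ribo-seq, 4134 in place of 2653 between the senescent states in Ribo-seq, and 1053 in place of 2430 in thapsigargin TE. Without cycling RNA-seq replicate 1 the RNA-seq calls were 707 in quiescent and 1723 in thapsigargin cells.

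No label says what a shared replicate number marks. The correlation of the deviations of same-numbered libraries from their state means ran from -0.32 to 0.63 in RNA-seq, -0.20 to 0.29 in Ribo-seq and -0.02 to 0.61 between the assays of 1 state, so over all states the numbers are not taken to pair the libraries. In 1 comparison with 3 pairs, quiescent against cycling Ribo-seq, every pair was over 0.1 (0.17, 0.28 and 0.29), and so were the pairs of the 2 assays in etoposide cells (0.14, 0.42 and 0.21); the replicate block changed no call of the 10 genes in quiescent Ribo-seq (HSPD1 passed in both fits) or in etoposide TE. With the replicate block, 6 genes passed in thapsigargin Ribo-seq, 4 after irradiation and 4 after etoposide in Ribo-seq, 3 after etoposide in RNA-seq and 3 in thapsigargin TE; no such count moved by over 1.5 times. The block gave a call to HSPA1A mRNA after etoposide (0.46, adjusted p = 0.0477) and HSPH1 footprints after etoposide (0.34, adjusted p = 0.041), and ended that of HSPA1A TE under thapsigargin (-1.91, adjusted p = 0.0634), all by edgeR.

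The depth of Ribo-seq limits HSPE1, HSPA1A and HSPA1B: in the thapsigargin libraries 1 footprint is worth 0.548 and 0.525 CPM, so levels under 1.64 and 1.57 CPM could not be told from 0.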

Other observations

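These values were picked after they were seen. The thapsigargin RNA-seq libraries differed from each other for several chaperone genes, in both directions. Replicate 1 and replicate 2 were at 304 and 542 CPM for HSP90AA1, 627 and 1033 for HSP90AB1, 131 and 310.5 for HSPB1, and 216 and 601 for HSPA5. DNAJB1 (163 and 197) and HSPA1B (8.24 and 8.73) were also lower in replicate 1. HSPA8 (2179 and 1808), HSPD1 (394 and 368), HSPA1A (10.9 and 7.36), HSPH1 (175 and 168) and HSPE1 (63.3 and 48.0) were higher in replicate 1. So were the paralogs HSPA9 (628 and 515) and HSP90B1 (313 and 274), while TRAP1 (57.1 and 66.5) was lower. The footprints of HSP90AA1, HSP90AB1, HSPB1 and HSPA5 in the thapsigargin Ribo-seq pair lay closer together, at 3903 and 3536, 1094 and 1158, 559 and 571, and 1928 and 2087 CPM. HSF1 footprints were at 8.21 and 40.4 CPM in the thapsigargin libraries, beside 31.7 to 55.1 in the other 12. MOB4, whose locus is joined to HSPE1 in the annotated readthrough gene, had 22.9 ± 7.65 CPM of footprints under thapsigargin (SD, n = 2), beside state means of 2.41 to 3.79 CPM elsewhere, with mRNA state means of 40.2 to 44.5 CPM. Whether the other gene list of the thapsigargin Ribo-seq counts bears on MOB4 and HSF1 was not tested.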
